A study of Rattus norvegicus with 4 samples.

Results

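Collagen processing and crosslinking enzymes, with a chaperone and an enhancer protein, were followed in rat lens capsules after extracapsular lens extraction (ECLE). In ECLE the lens is taken out through an opening in its capsule, and the capsule stays in the eye with its lens epithelial cells (LECs). The group held 10 genes, *P4ha1*, *P4ha2*, *P4hb*, *Plod1*, *Plod2*, *Plod3*, *Lox*, *Loxl1*, *Serpinh1* and *Pcolce*, chosen by name from the single gene symbol of each probe set. All 10 were on the array, with 13 of its 31042 probe sets and 10 of its 14217 genes with a single symbol. Each gene was read from the brightest of its probe sets by mean level, and its other probe sets are given beside it.

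The capsules came from female albino Sprague-Dawley rats in which ECLE was performed on both eyes at 7 weeks of age. Day 0, collected once the surgery was over, was covered by 1 array (rats of 7 weeks), 1 W (day 7, rats of 8 weeks) by 2 arrays that are labeled biological replicates 1 and 2, and 2 W (day 14, rats of 9 weeks) by 1 array. Day 0 capsules had thus been operated on as well, and the number of eyes behind each array is not stated in the sources used. The methods speak of more samples at each time than there are arrays here, so whether an array stands for a single animal or a pool is not known. Only 1 W had replicates, so the p-values below rest on the spread between its 2 arrays, both of the gene and of all probe sets tested. The exception is the setting that takes all arrays after ECLE as 1 group, which uses the spread of those arrays. The tissue was the whole capsule with its cells, so fewer cells of a type and less RNA per cell cannot be told apart.

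Collagen chains are modified while they enter the endoplasmic reticulum (ER), before they fold into a triple helix. Prolyl 4-hydroxylase, made of an alpha subunit (*P4ha1* or *P4ha2*) and the protein disulfide isomerase encoded by *P4hb*, hydroxylates prolines that keep the helix stable at body temperature, and the lysyl hydroxylases (*Plod1* to *Plod3*) hydroxylate lysines that later carry sugars and crosslinks. *Serpinh1* encodes HSP47, a chaperone that binds the folded helix in the ER. Outside the cell, the protein of *Pcolce* enhances removal of the C-terminal propeptide, and the lysyl oxidases *Lox* and *Loxl1* start the covalent crosslinks of collagen and elastin. In the lens, LECs make the type IV collagen of the capsule, and the fibrillar collagens of posterior capsule opacification (PCO) pass through the same enzymes.

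Array medians of the deposited intensities lay between 31.9 (2 W) and 57.0 (day 0), so each value was divided by the mean of its array. This quotient is called the relative intensity here. Over the 18625 probe sets bright enough to be tested, the upper 60% by mean level, the median log2 ratio to day 0 was then -0.08 (1 W) and -0.26 (2 W). For beta-actin, control probe sets at the 3' end were brighter than those at the 5' end by a ratio between 1.61 (2 W) and 2.32 (day 0), a sign of RNA integrity and labeling. All 12 lens epithelium markers were bright enough to be tested, with a summed relative intensity between 210 and 215 on the 4 arrays and median log2 ratios of -0.07 (1 W) and -0.44 (2 W). Of these 12, 2 were under 0.5-fold at 1 W and 4 at 2 W (3.71% and 12.3% of all genes tested), and 0 were over 2.0-fold. The near-constant sum thus does not hold for each marker. Markers of other cells also differed between the arrays. Each of the 12 photoreceptor markers measured was under 0.5-fold at both times, and their summed relative intensity was 67.2 (day 0), 6.83 and 28.3 (replicates 1 and 2 at 1 W) and 9.03 (2 W). Of 17 macrophage markers, 15 were over 2.0-fold at 1 W and 14 at 2 W, with sums of 7.79, 48.6, 33.7 and 45.0 in the same order of arrays. *Lgals3* alone made 26.8 of the sum at 2 W, and the median log2 ratio of the 17 was 2.12 (1 W) and 1.66 (2 W). Of 12 smooth muscle and pericyte markers, 9 were over 2.0-fold at each time, and the sums were 2.64, 22.7, 10.9 and 10.8. For 13 measured fibroblast markers, of which 5 were over 2.0-fold at each time, the sums were 32.0, 74.1, 56.8 and 98.2. At 2 W *S100a4* made 51.8 of this sum and *Dcn* 17.2. Of the 13, 7 were above day 0 on each array and 3 below it (26.6% and 36.4% of all genes tested). Included in these counts are *Fap* (above) and *Mfap5* (below), which were too dim to be tested. Of 9 pigment cell markers, 5 were over 2.0-fold at 1 W and 6 at 2 W, with sums of 12.3, 68.9, 25.5 and 37.9. Of 11 lens fiber markers, 1 was over 2.0-fold at 1 W and 7 at 2 W, with sums of 217, 248, 215 and 419. At 1 W 2 of these 11 were under 0.5-fold, the lowest with a log2 ratio of -3.48. The 11 endothelial markers, of which 2 were over 2.0-fold at 1 W and 4 at 2 W, had sums of 4.84 or less. No marker was listed at 0, and the part of these cells in the values below was not tested.

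None of the 10 genes passed limma at 1 W or 2 W against day 0 (adjusted p threshold 0.05 over all 18625 probe sets), where 0.0483% of all probe sets were called higher and 0% lower at either time. With median scaling, 1.4% were called upward and 0.784% downward at 1 W, and 5.09% upward and 3.67% downward at 2 W. With the values as deposited, these shares were 0.467%, 0.875%, 1.85% and 41%. The genes whose products act in the ER lay mostly below day 0, and those whose products act outside the cell mostly above it. *Plod1*, *Plod2*, *Plod3*, *P4ha1*, *P4ha2* and *Serpinh1* were below day 0 on each of the 3 arrays after ECLE, and these 6 were so under each of 5 scalings of the arrays. *Lox* and *Pcolce* were above day 0 on each array. *Pcolce* was so under all 5 scalings, while *Lox* was not with the values as deposited. *P4hb* and *Loxl1* were on different sides of day 0 at 1 W and 2 W, and their side depended on the scaling. Beside these 6 and 2 of 10, 36.4% of the 10455 genes tested were below day 0 on each array and 26.6% above it, and these shares were between 24.9% and 56% below and between 9.69% and 39.1% above over the 5 scalings. The 10 genes had a median log2 ratio of -0.26 (1 W) and -0.44 (2 W), against -0.01 and -0.21 over all genes tested.

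**Figure D1:**
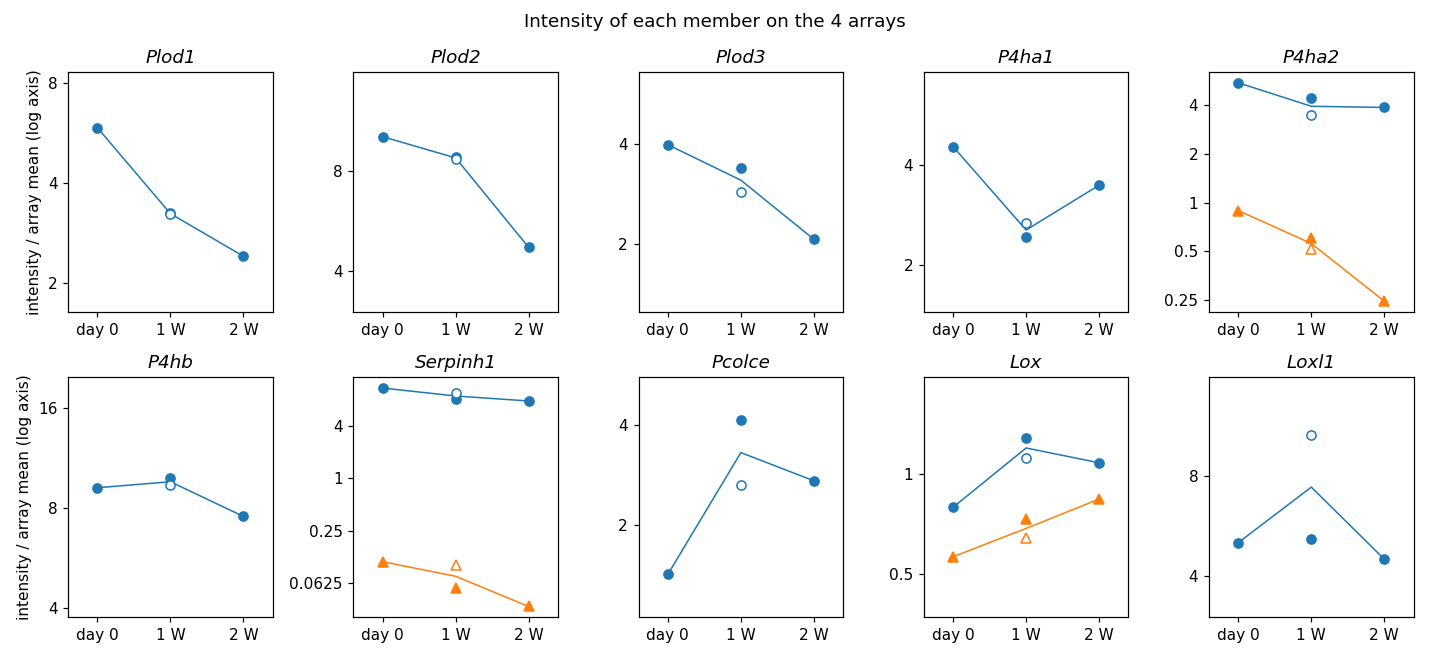
Relative intensity (intensity over the array mean, log axis) of each gene at day 0, 1 W and 2 W. Circles are the probe set used for the gene and triangles its other probe set, each point is 1 array (open points are replicate 2 at 1 W), and lines pass through the geometric mean at 1 W. *Plod1*, *Plod2* and *Plod3* stand lowest at 2 W, *P4ha1* at 1 W, and *Pcolce* and *Lox* stand lowest at day 0.

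Sequence upstream of the genes is shown for *Plod1* and *Plod2*, which had the lowest ratios at 2 W, for *Pcolce*, which had the highest, and for *P4ha2* and *Serpinh1*, which hold a searched motif. *P4ha2* and *Plod2* are among the known targets of hypoxia-inducible factor and *Serpinh1* among those of heat shock factor. Known targets were not listed for the other genes of the group, so motif and known target cannot be compared here. Each run is the 250 bases before the transcription start in the promoter table made from RefSeq (rat build GRCr8), written 5′ to 3′ along the gene. Capitals mark the hypoxia response core ACGTG on either strand and the heat shock element units GAANNTTC and TTCNNGAA, which read the same on both strands and can overlap.
Plod1 (chr5:163650738-163650987, minus strand): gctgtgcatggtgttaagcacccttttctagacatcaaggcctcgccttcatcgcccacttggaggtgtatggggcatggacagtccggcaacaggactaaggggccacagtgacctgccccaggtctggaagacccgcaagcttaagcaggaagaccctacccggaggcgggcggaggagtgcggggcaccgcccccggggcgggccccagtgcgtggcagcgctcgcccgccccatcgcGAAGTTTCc
Plod2 (chr8:101964068-101964317, plus strand): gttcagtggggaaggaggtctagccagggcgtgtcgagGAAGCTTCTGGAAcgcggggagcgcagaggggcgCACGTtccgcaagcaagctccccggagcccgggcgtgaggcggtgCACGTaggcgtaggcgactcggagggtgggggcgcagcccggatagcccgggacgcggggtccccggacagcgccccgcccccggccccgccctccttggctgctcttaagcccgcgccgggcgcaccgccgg
P4ha2 (chr10:38743644-38743893, plus strand): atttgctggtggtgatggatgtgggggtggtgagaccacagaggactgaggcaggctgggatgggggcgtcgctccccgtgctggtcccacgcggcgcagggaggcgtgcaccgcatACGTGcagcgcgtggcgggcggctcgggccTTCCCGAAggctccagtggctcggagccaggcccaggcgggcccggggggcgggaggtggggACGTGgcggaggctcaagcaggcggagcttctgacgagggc
Serpinh1 (chr1:163062977-163063226, minus strand): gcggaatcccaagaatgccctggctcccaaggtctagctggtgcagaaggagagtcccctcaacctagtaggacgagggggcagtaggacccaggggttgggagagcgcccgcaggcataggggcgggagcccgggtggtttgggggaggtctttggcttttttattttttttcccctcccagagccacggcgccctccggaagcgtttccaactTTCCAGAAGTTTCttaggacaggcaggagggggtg
Pcolce (chr12:24720722-24720971, plus strand): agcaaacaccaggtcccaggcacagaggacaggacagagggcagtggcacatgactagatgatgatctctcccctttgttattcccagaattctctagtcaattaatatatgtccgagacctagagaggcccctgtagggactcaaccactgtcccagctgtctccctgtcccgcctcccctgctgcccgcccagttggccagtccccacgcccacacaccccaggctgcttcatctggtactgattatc

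Of the 10 genes, 9 had an entry in the promoter table, all but *Lox*. ACGTG was found upstream of 2 of the 9, *P4ha2* and *Plod2*, with 2 matches each, and in 16.6% of all 33469 promoters. GAANNTTC was found in 4 of the 9 (*P4hb*, *Plod1*, *Plod2* and *Serpinh1*) and in 7.23% of all, and TTCNNGAA in 3 of the 9 (*P4ha2*, *Plod2* and *Serpinh1*) and in 7.48% of all. In *Serpinh1* and *Plod2* a TTCNNGAA and a GAANNTTC share 3 bases and so form 3 units in a row, read as such on either strand, a run that 0.663% of all promoters hold. The matches are letters in these windows only.

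By the brightest probe set of each gene, the 3 lysyl hydroxylases had the lowest log2 ratios of the group at 2 W. *Plod1*, whose enzyme hydroxylates lysines of the helical part of the chain, had relative intensities of 5.87 (day 0), 3.24 and 3.23 (replicates 1 and 2 at 1 W) and 2.41 (2 W). The 3 arrays after ECLE were all below day 0, and the replicates differed by less than 0.01 log2 units. Its log2 ratio was -0.86 at 1 W (standard error 0.13, 95% interval -1.21 to -0.50, adjusted p = 0.132 from limma) and -1.29 at 2 W (standard error 0.15, interval -1.69 to -0.88, adjusted p = 0.0567). At 1 W 5.2% of the genes tested had a lower log2 ratio than *Plod1*, and at 2 W 6.6%. With arrays scaled by their median its 2 W ratio passed limma (log2 ratio -1.01, adjusted p = 0.039). Under that scaling, 3.67% of all probe sets were called lower at 2 W, and none of the other 9 genes passed.

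*Plod2* encodes the hydroxylase of the telopeptide lysines, the residues at the chain ends whose hydroxylation sets the kind of crosslink that forms. Its relative intensities were 10.2 (day 0), 8.84 and 8.71 (replicates 1 and 2 at 1 W) and 4.72 (2 W). The arrays at 1 W thus lay near day 0 and the array at 2 W apart from both. Its log2 ratio was -0.21 at 1 W (interval -0.53 to 0.11, adjusted p = 0.400) and -1.11 at 2 W (standard error 0.14, interval -1.48 to -0.74, adjusted p = 0.0577). Set against 1 W directly, the 2 W array gave a log2 difference of -0.89 (standard error 0.12, interval -1.22 to -0.57, adjusted p = 0.139).

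*Plod3* encodes a lysyl hydroxylase that also adds glucose to hydroxylysine that already carries galactose, a step needed for the type IV collagen of basement membranes. It had relative intensities of 3.97 (day 0), 3.38 and 2.86 (1 W) and 2.06 (2 W). Its log2 ratio was -0.35 at 1 W (adjusted p = 0.353) and -0.95 at 2 W (standard error 0.19, interval -1.48 to -0.41, adjusted p = 0.077). At 2 W, 3 of the 10 genes were lower than day 0 at an unadjusted p under 0.05, and these were the 3 lysyl hydroxylases. None was higher. Over all 10455 genes tested these shares were 22% lower and 10.8% higher. Relative to the median of the tested probe sets at 2 W, the log2 values were -1.02 for *Plod1*, -0.84 for *Plod2* and -0.68 for *Plod3*.

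The subunits of prolyl 4-hydroxylase were at their lowest at different times. *P4ha1*, the more widely expressed alpha subunit, had relative intensities of 4.53 (day 0), 2.41 and 2.68 (replicates 1 and 2 at 1 W) and 3.47 (2 W). Both arrays at 1 W were below the array at 2 W, which was itself below day 0. The log2 ratio was -0.83 at 1 W (standard error 0.15, interval -1.23 to -0.43, adjusted p = 0.145) and -0.39 at 2 W (interval -0.85 to 0.08, adjusted p = 0.210). By the brightest probe set of each gene, *P4ha1* was the only 1 of the 10 genes that was higher at 2 W than on each array at 1 W. Its log2 difference was 0.45 (standard error 0.15, adjusted p = 0.205), and 90.2% of the genes tested had a lower value in this comparison. The dimmer probe set of *Lox* was also higher at 2 W than on each array at 1 W, with a log2 difference of 0.29.

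*P4ha2*, the second alpha subunit, which is prominent in cartilage and endothelium, was read by a pair of probe sets that parted at 2 W. The brighter one had relative intensities of 5.52 (day 0), 4.46 and 3.50 (1 W) and 3.89 (2 W), and its log2 ratio was -0.48 (1 W, adjusted p = 0.305) and -0.51 (2 W, adjusted p = 0.215). The dimmer one had relative intensities of 0.892, 0.605, 0.513 and 0.244 on the same arrays, and its log2 ratio was -0.68 (1 W, adjusted p = 0.265) and -1.87 (2 W, standard error 0.27, adjusted p = 0.0592). Both lay below day 0 on each array, and the 2 W values of the pair differed beyond their standard errors. *P4hb*, which serves as the beta subunit and also forms disulfide bonds in other proteins, had relative intensities of 9.23 (day 0), 9.87 and 9.38 (1 W) and 7.57 (2 W). Its log2 ratio was 0.06 at 1 W (interval -0.27 to 0.39, adjusted p = 0.807), turning below 0 with the values as deposited, and -0.29 at 2 W (interval -0.67 to 0.09, adjusted p = 0.241), turning above 0 with 75th percentile scaling.

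*Serpinh1*, the collagen chaperone, stayed within 0.5 log2 units of day 0 on every array by its brighter probe set. The relative intensities were 10.9 (day 0), 8.13 and 9.65 (replicates 1 and 2 at 1 W) and 7.76 (2 W). The arrays after ECLE were below day 0, and the log2 ratio was -0.30 at 1 W (interval -0.73 to 0.13, adjusted p = 0.377) and -0.49 at 2 W (interval -0.99 to 0.00, adjusted p = 0.163). The suffix of this probe set marks probes that can match several transcripts. The other probe set was too dim to be tested, with relative intensities of 0.110 (day 0), 0.0552 and 0.101 (1 W) and 0.0336 (2 W) and a log2 ratio of -1.71 at 2 W. The mean of both probe sets gave -1.10 at 2 W.

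**Figure D2:**
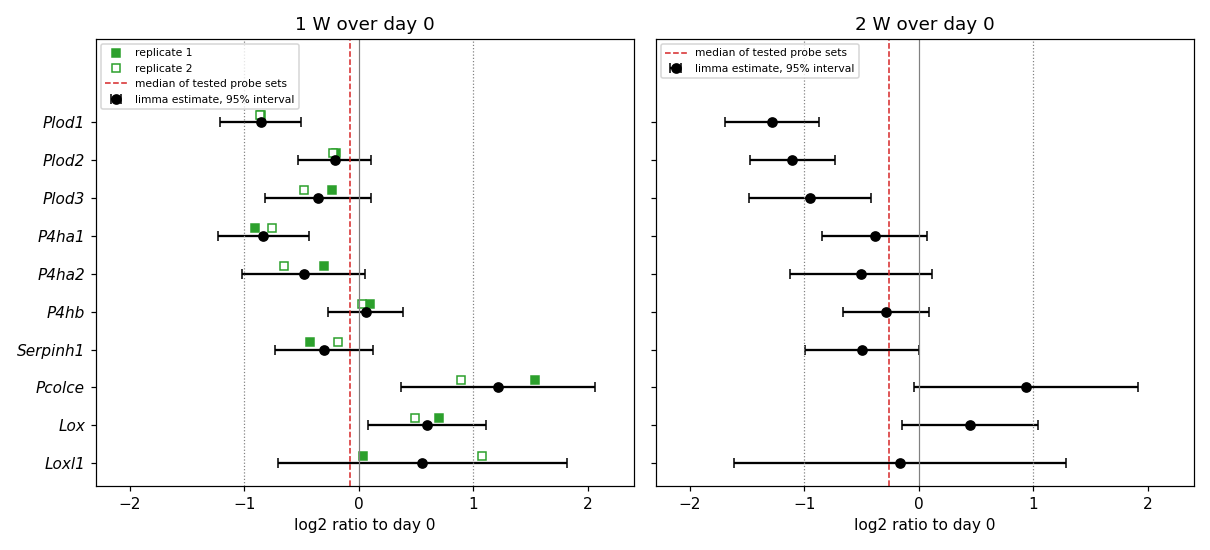
Log2 ratio of each gene to day 0 (horizontal axis) at 1 W (left) and 2 W (right), with limma estimates and 95% intervals in black, the 2 arrays at 1 W as green squares, dotted lines at 2.0-fold and 0.5-fold, and the dashed line at the median of the tested probe sets (-0.08 at 1 W and -0.26 at 2 W). The intervals of *Plod1*, *Plod2* and *Plod3* at 2 W and of *Plod1* and *P4ha1* at 1 W lie below 0, and those of *Pcolce* and *Lox* at 1 W lie above it.

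Of the genes whose products act outside the cell, *Pcolce* had the highest ratios. Its relative intensities were 1.42 (day 0), 4.14 and 2.64 (replicates 1 and 2 at 1 W) and 2.72 (2 W). All arrays after ECLE were above day 0, with replicate 1 the highest. The log2 ratio was 1.22 at 1 W (2.32-fold, standard error 0.31, interval 0.37 to 2.06, adjusted p = 0.20) and 0.94 at 2 W (1.91-fold, standard error 0.36, interval -0.04 to 1.91, adjusted p = 0.173), above 96.5% of the genes tested at 1 W and 92.7% at 2 W. Under the fold criterion of the methods, *Pcolce* was the single gene of the 10 over 2.0-fold at 1 W (4.95% of genes tested), and none was at 2 W (6.6%). Without replicate 1 its 1 W log2 ratio was 0.89, under 2.0-fold, and *Loxl1* was over 2.0-fold in its place.

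The 2 lysyl oxidases had different time courses. *Lox* had relative intensities of 0.793 (day 0), 1.29 and 1.11 (1 W) and 1.08 (2 W), so all arrays after ECLE were above day 0. Its log2 ratio was 0.59 at 1 W (standard error 0.19, interval 0.08 to 1.11, adjusted p = 0.241) and 0.45 at 2 W (interval -0.15 to 1.04, adjusted p = 0.245), and with the intensities as deposited its 2 W value was -0.12. Its dimmer probe set lay above day 0 on each array too, with log2 ratios of 0.28 and 0.58. *Loxl1*, whose enzyme is tied to elastic fibers, had relative intensities of 5.04 (day 0), 5.17 and 10.6 (replicates 1 and 2 at 1 W) and 4.49 (2 W). Only replicate 2 stood apart from day 0. The replicates differed by 1.04 log2 units, against a median difference of 0.18 over the genes tested, and *Loxl1* had the widest interval of the 10 genes at each time. Its log2 ratio was 0.56 at 1 W (standard error 0.46, interval -0.70 to 1.81, adjusted p = 0.551) and 0.04 without replicate 2, and at 2 W it was -0.17 (interval -1.62 to 1.29, adjusted p = 0.855), turning above 0 with median or 75th percentile scaling.

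At 1 W, 2 of the 10 genes were lower than day 0 at an unadjusted p under 0.05 (*P4ha1* and *Plod1*), beside 8.92% of the genes tested, and 2 were higher (*Lox* and *Pcolce*), beside 10.4%. By the fold rule, none of the 10 was under 0.5-fold at 1 W (3.71% of genes tested), and 2 were at 2 W, *Plod1* at 0.410-fold and *Plod2* at 0.464-fold (12.3%). This count was 1 with median scaling, 0 with 75th percentile scaling, 5 with the values as deposited and 4 with the mean of all probe sets of a gene. The 12.3% holds for mean scaling alone, and the share of all genes was not counted under other settings. At 2 W the median log2 ratio of all tested probe sets was 0.01 with median scaling, 0.05 with 75th percentile scaling and -0.83 as deposited. No gene of the 10 met a fold rule on each of the 3 arrays, which 2.51% of genes met upward and 1.78% downward. Between 2 W and 1 W none of the 10 passed limma, which called 0% of all probe sets in either direction. There, 4 of the 10 were lower at an unadjusted p under 0.05 (*Plod1*, *Plod2*, *Plod3* and *P4hb*; 18.7% of genes) and 1 was higher (*P4ha1*; 6.02%). Both ratios to day 0 share the same day 0 array.

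Other genes of collagen biosynthesis were spread on both sides of day 0. Of 32 genes on this list 23 were measured. None of the 22 bright enough to be tested passed limma at either time, while by unadjusted p under 0.05 the 1 W arrays gave 4 higher with 6 lower, and the 2 W array 2 higher with 9 lower. Of all genes tested, 10.4% and 8.92% were so at 1 W, and 10.8% and 22% at 2 W. Of the 23, 6 were above day 0 on each of the 3 arrays and 11 below it (26.6% and 36.4% of all genes tested), and their median log2 ratio was -0.20 (1 W) and -0.30 (2 W), beside -0.01 and -0.21 over all genes tested. Over 2.0-fold on each array were *Fbln5*, which encodes an elastin-binding fibulin and had a dim day 0 intensity of 17.3, with 1.94 and 2.25 on the log2 scale at 1 W and 2 W (adjusted p = 0.283 and 0.166), and *Postn*, which encodes the matricellular protein periostin, with 1.86 and 1.21 (adjusted p = 0.101 and 0.0705). Under 0.5-fold on each array were 3 genes. *Colgalt2*, a galactosyltransferase that acts on the hydroxylysines made by the lysyl hydroxylases, had log2 ratios of -2.20 and -3.04 (adjusted p = 0.130 and 0.0577). *Creb3l1*, a transcription factor of the ER membrane that drives secretory and collagen genes, had -1.85 and -1.89 (adjusted p = 0.138 and 0.0676), and the lysyl oxidase *Loxl2* -1.15 and -1.35 (adjusted p = 0.142 and 0.0646).

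Relatives of the 10 genes are given here after their values were seen. The lysyl oxidase *Loxl3* had log2 ratios of -0.53 (1 W) and -1.44 (2 W), so *Loxl2* and *Loxl3* lay below day 0 on each array while *Lox* lay above it. *P3h1*, a prolyl 3-hydroxylase, had -0.49 and -1.41 (adjusted p = 0.0589 at 2 W). *P4ha3*, the third alpha subunit, had 0.91 at 1 W and 0.13 at 2 W. *Bmp1*, the proteinase whose activity *Pcolce* enhances, had -0.20 and -0.35 by its brighter probe set and 0.10 and 0.18 by the other, so no direction was common to both.

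The collagen chains, on which these proteins act, covered a wider range of log2 ratios than the 10 genes. Of 25 measured chains, 8 were over 2.0-fold on every array after ECLE and 3 under 0.5-fold, and none of the 10 genes was. Of all genes tested, 2.51% and 1.78% were so, and none of 10 is near those shares. The 8 chains include *Col14a1*, which was too dim to be tested, while these shares cover tested genes only. *Col1a1* rose by log2 ratios of 4.34 (1 W, adjusted p = 0.030) and 5.23 (2 W, adjusted p = 0.0405), and *Col5a2* by 5.13 (1 W, adjusted p = 0.030). At 2 W its brighter probe set, with 4.61, missed the threshold (adjusted p = 0.0503) and the other one, with 4.27, passed it narrowly. Of the 24 chains bright enough to be tested, no other passed limma, and without an intensity trend limma called no probe set at all. The second chain of type I collagen, *Col1a2*, named after its values were seen, had log2 ratios of -0.11 and 0.37, within the range of the 10 genes. *Col6a1*, *Col3a1*, *Col6a3* and *Col12a1* had log2 ratios between 3.48 and 5.14 at 2 W. At day 0 all 6 of these higher chains had intensities below the array median of 57.0, between 5.60 for *Col6a1* and 52.8 for *Col3a1*, and they passed the filter on mean level through the later arrays. It is not known whether they stood above background at day 0, so the sizes of these ratios are uncertain. The 3 under 0.5-fold were *Col4a1* (-1.12 and -1.06 at 1 W and 2 W), *Col4a2* (-1.40 and -1.40), both of the capsule's own basement membrane collagen, and *Col8a1* (-1.58 and -1.47). At 2 W the fibrillar chains *Col11a1* (-0.34 and -2.16) and *Col5a3* (0.37 and -2.16) were lower still. Both were named after their values were seen. Summed over the 5 measured type IV chains, the relative intensity was 113 (day 0), 59.7 and 57.0 (1 W) and 52.4 (2 W). For the 3 lysyl hydroxylases the sums were 20.01, 15.5, 14.8 and 9.19 on the same arrays, and for the 8 fibrillar chains 15.9, 24.1, 24.5 and 25.1.

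**Figure D3:**
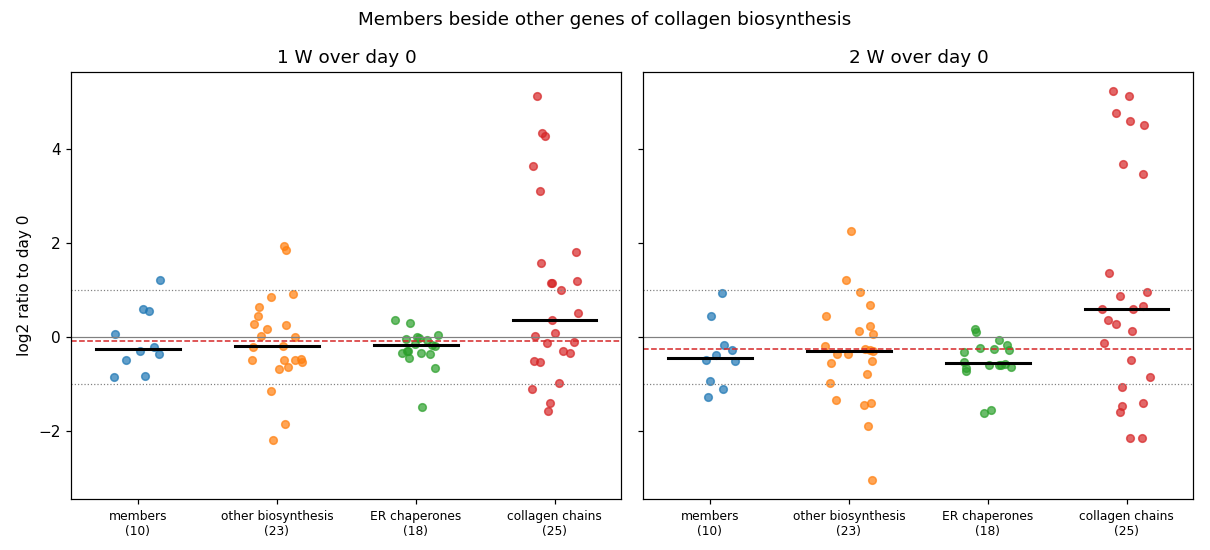
Log2 ratio to day 0 (vertical axis) at 1 W (left) and 2 W (right), with the number of genes in brackets. Shown are the 10 genes of the group, other genes of collagen biosynthesis, general chaperones of the endoplasmic reticulum (ER) and collagen chains. Each point is a gene, black bars are medians, the dashed line is the median of the tested probe sets and dotted lines are 2.0-fold and 0.5-fold. The 10 genes lie between -0.86 and 1.22 at 1 W and between -1.29 and 0.94 at 2 W. The collagen chains lie between -1.58 and 5.13 at 1 W and between -2.16 and 5.23 at 2 W. The highest chains are set against day 0 values below the array median.

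General chaperones and disulfide isomerases of the ER, where the products of 7 of the 10 genes act, included few large differences. Of 18 measured, none passed limma, while by unadjusted p under 0.05 1 was higher and 2 lower at 1 W, and none higher and 8 lower at 2 W, beside 10.4% and 8.92% of all genes tested at 1 W and 10.8% and 22% at 2 W. Of the 18, 10 were below day 0 on each array and 1 above it (36.4% and 26.6% of all genes tested), and their median log2 ratio was -0.18 (1 W) and -0.56 (2 W). *Ero1b*, an oxidase that recharges protein disulfide isomerases, was the 1 gene under 0.5-fold on each array, with log2 ratios of -1.49 and -1.56 (adjusted p = 0.229 and 0.139), while its dimmer probe set, too dim to be tested, had 2.75 at 2 W. The 7 genes of the group whose products act in the ER had medians of -0.35 and -0.51. The 3 whose products act outside the cell had medians of 0.59 and 0.45.

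**Figure D4:**
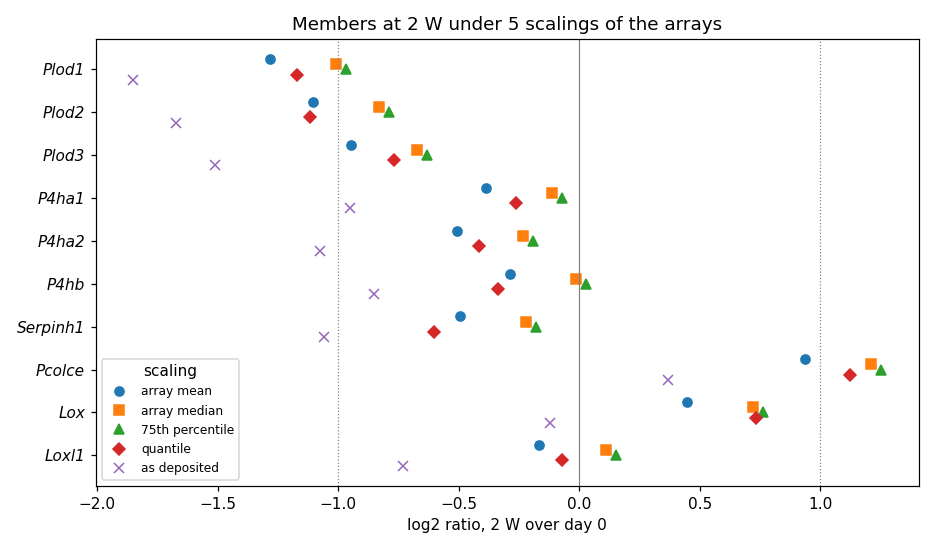
Log2 ratio at 2 W over day 0 for each gene (horizontal axis) with arrays divided by their mean, median or 75th percentile, quantile normalized, or as deposited, with dotted lines at 2.0-fold and 0.5-fold. *Plod1*, *Plod2* and *Plod3* lie below 0 under each scaling and *Pcolce* above it, while *Lox*, *Loxl1* and *P4hb* cross 0.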

How the data were processed

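Total RNA of rat lens capsules was labeled with the GeneChip 3' IVT PLUS kit and hybridized to the Affymetrix rat genome expression array. The authors deposited 31099 linear intensities per array, 1 for each probe set, made with Affymetrix Expression Console. The sources used here give neither the summary algorithm nor whether the methods' per chip normalization had been applied. No detection calls were used, so how far dim probe sets stand above background is unknown, and precision is limited by the number of arrays.

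Values were divided by the array mean after 57 control probe sets were dropped, and put on the log2 scale. A filter at the 40th percentile of the mean log2 level left out dim probe sets. The other 18625 entered a model of the 3 groups in limma 3.58.1 (R 4.3.3, eBayes with trend, two-sided, adjusted by Benjamini-Hochberg at 0.05), which had 1 residual and 3.12 prior degrees of freedom and was tested on simulated data. Tables were made with Python 3.11.15. Gene symbols are those of the platform annotation. The 1 W value averages the log2 values of its 2 arrays, whose spread is assumed to hold for day 0 and 2 W. In every list a gene is read from its brightest probe set. Genes of the other lists named in the text were those called, then up to 4 in each direction past the fold rule (over 2.0 or under 0.5) on each array, then, where none, the 2 brightest. The members and lists were chosen with earlier results of these data known. Settings compared were other scalings, filters, variance models, a floor at the 20th percentile, all arrays after ECLE as 1 group, the mean of a gene's probe sets and each 1 W replicate left out.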

Additional observations from a re-analysis of the deposited data

How the results depend on the processing

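The calls and counts of the 10 genes depended mainly on how arrays were scaled. None of the 10 was called at 1 W against day 0 under any setting run. At 2 W against day 0 the count of genes called was 1 with median scaling (*Plod1*) and 7 with the values as deposited (*P4ha1*, *P4ha2*, *P4hb*, *Plod1*, *Plod2*, *Plod3* and *Serpinh1*, all lower), where the median log2 ratio of all tested probe sets was -0.83 and 41% of them were called lower. At 2 W against 1 W it was 4 with the values as deposited (*P4hb*, *Plod1*, *Plod2* and *Plod3*, all lower). There the median log2 ratio of all tested probe sets was -0.58, and 22.7% of them were called lower. Over all 18625 probe sets, the calls against day 0 with median scaling were 260 upward with 146 downward (1 W) and 948 with 683 (2 W), with 75th percentile scaling 276 with 123 (2 W), as deposited 87 with 163 (1 W) and 344 with 7630 (2 W), and without an intensity trend there were none, against 9 upward and none downward at each time with mean scaling. At 2 W the adjusted p over the settings was between 0.00938 and 0.327 for *Plod1* and between 0.00938 and 0.641 for *Plod2*.

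The median log2 ratio of the 10 genes at 1 W (-0.26) was -0.14 with median scaling, -0.18 with 75th percentile scaling, -0.29 with quantile normalization, -0.45 as deposited, -0.43 with all arrays after ECLE as 1 group, -0.28 with the mean of all probe sets of a gene, and between -0.22 and -0.20 without either 1 W replicate. At 2 W (-0.44) it was -0.17, -0.12, -0.38, -1.01 and -0.67 with median scaling, 75th percentile scaling, quantile normalization, as deposited and with the mean of all probe sets.

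The count over 2.0-fold at 2 W (0) was 1 with median, 75th percentile or quantile scaling and with all arrays after ECLE as 1 group. The count under 0.5-fold at 1 W (0) was 2 as deposited and 1 with all arrays as 1 group. The count under 0.5-fold at 2 W (2) was 1 with median scaling, 0 with 75th percentile scaling, 5 as deposited, 1 with all arrays as 1 group and 4 with the mean of all probe sets. Shares of all genes past these fold rules were not counted under the other settings, so these counts have no background beside them.

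Log2 ratios that changed sign were those of *Lox* at 2 W (-0.12 as deposited), *Loxl1* at 2 W (0.11 with median scaling, 0.15 with 75th percentile scaling, 0.31 with all arrays as 1 group) and *P4hb* at 1 W (-0.13 as deposited, -0.0557 with all arrays as 1 group) and at 2 W (0.0288 with 75th percentile scaling). Of 220 tested values of single genes under other settings, 205 kept their sign and their side of the threshold and 8 passed it, all at 2 W (7 as deposited and 1 with median scaling). The 40 values without either 1 W replicate, which have no test, kept their sign. Those at 2 W use no 1 W array, so they could not change. Other filters and variance models leave the log2 ratio of a probe set as it is, so signs could not change there either. The cause of the sign changes was not tested. Without either 1 W replicate no test was run, since no residual degree of freedom is left. No paired analysis was possible because the groups hold 1, 2 and 1 arrays and share fewer than 2 replicate numbers.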

Other observations

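Elastic fiber genes, which share *Lox* and *Loxl1* as crosslinking enzymes, were mostly above day 0 at 1 W. Of 14 measured, 8 were above day 0 on each of the 3 arrays and 2 below it. Among those below was *Mfap5*, which was too dim to be tested. Of all genes tested, 26.6% were above and 36.4% below, and the share above was between 9.69% and 39.1% over the scalings. Of the 13 bright enough to be tested, none passed limma (adjusted p threshold 0.05). At an unadjusted p under 0.05, 3 were higher and 1 lower at 1 W, with 2 and 1 at 2 W (10.4%, 8.92%, 10.8% and 22% of all genes tested). Their median log2 ratio was 0.90 (1 W) and 0.24 (2 W), beside -0.01 and -0.21 over all genes tested. On the arrays at 1 W it was 0.24 on replicate 1 and 1.21 on replicate 2, and *Loxl1* also had its highest value on replicate 2.

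Over 2.0-fold on each array were *Fbn2*, which encodes a fibrillin of microfibrils, with log2 ratios of 1.62 (1 W) and 1.82 (2 W) (adjusted p = 0.197 and 0.099), *Mfap4*, a microfibril-associated protein, with 1.81 and 1.20 (adjusted p = 0.147 and 0.131), and *Fbln5* with the values above. *Fbn2* and *Fbln5* had day 0 intensities of 14.9 and 17.3, below the array median of 57.0, and the sizes of their ratios are uncertain. *Eln*, which encodes elastin itself, had log2 ratios of 0.09 and 0.29. Its day 0 intensity of 34.8 was also below the array median, so whether it stood above background is not known. The other probe set of *Eln*, too dim to be tested, had log2 ratios of 0.40 and 1.34. *Mfap2*, another microfibril protein, had -0.90 and -1.60. *Eln* and *Mfap2* were named after their values were seen.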
